A study of Mus musculus with 9 samples.

Results

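The 7 genes described here encode cytosolic chaperones of the HSP70 and HSP90 machinery and were taken by symbol; the rule uses no measured value. They are Hspa1a, Hspa1b and Hspa8 (HSP70), Hsph1 (HSP110), Dnajb1 (a J-domain partner of HSP70), and Hsp90aa1 and Hsp90ab1 (HSP90). They are 7 of the 17428 gene symbols that were above 0 in at least 1 of 9 libraries. Each library held RNA of fibroblasts sorted from mouse lungs at an early stage of metastasis, after a triple-negative breast tumor had been resected. The labels give the sorted cells as CD45- EpCAM- PDGFRa+, and the methods add a CD31-negative gate. The PBS group (n = 4) received vehicle, which the labels also call saline, and the DOX group (n = 5) received doxorubicin, an anthracycline that damages DNA. The methods give 2 doses of doxorubicin at 5 mg/kg, 5 days apart, the first 4 days after tumor removal, with lungs taken 24 h after the last dose. All mice of both groups had carried and lost a tumor, so the comparison holds no tumor-free mouse. The methods describe female mice injected with tumor cells at 8 weeks of age and operated on 2 weeks later, in BALB/c (4T1 cells) and C57BL/6 (EO771 cells) models, and the labels do not say which model gave these libraries. The labels number the libraries as biological replicates.

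HSP70 proteins bind short hydrophobic stretches of unfolded proteins and release them in a cycle driven by ATP. J-domain proteins such as DNAJB1 deliver clients and start ATP hydrolysis, and HSP110 proteins such as HSPH1 exchange the nucleotide so that the client is released. HSP90 proteins act later, on near-native clients such as kinases and steroid receptors. Hspa8 and Hsp90ab1 are made constitutively in most cells. Hspa1a, Hspa1b, Hsp90aa1, Dnajb1 and Hsph1 are targets of heat shock factor 1 (HSF1). HSF1 binds repeated NGAAN units in their promoters after proteotoxic stress, including the stress of tissue dissociation. The list of HSF1 target genes used below also holds Hspa8 and Hsp90ab1.

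Hspa1a and Hspa1b are neighbouring copies on the minus strand of chromosome 17. In the mm10 annotation Hspa1a (ENSMUSG00000091971.3) is a single exon at chr17:34969190-34972156 and Hspa1b (ENSMUSG00000090877.3) a single exon at chr17:34956436-34959238. Their coding sequences match at 1918 of 1929 aligned positions (99.4%), whereas the transcript parts after the stop codon match at 47.3% of 875 aligned positions. A tag near the 3′ end can therefore tell them apart, and no other annotated transcript matched the last 500 bases of either at 95% identity over 50 bases. Their promoters, the 250 bases before the start in RefSeq on GRCm38.p6 and here read on the minus strand, are printed because these genes form the pair that the comparison turns on; capitals mark GAANNTTC, a pair of inverted HSF1 units.
Hspa1a, chr17:34972157-34972406: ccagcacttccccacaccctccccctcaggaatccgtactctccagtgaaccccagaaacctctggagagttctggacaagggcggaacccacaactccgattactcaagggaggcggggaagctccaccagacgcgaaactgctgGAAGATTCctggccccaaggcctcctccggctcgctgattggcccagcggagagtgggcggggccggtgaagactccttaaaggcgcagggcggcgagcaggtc
Hspa1b, chr17:34959239-34959488: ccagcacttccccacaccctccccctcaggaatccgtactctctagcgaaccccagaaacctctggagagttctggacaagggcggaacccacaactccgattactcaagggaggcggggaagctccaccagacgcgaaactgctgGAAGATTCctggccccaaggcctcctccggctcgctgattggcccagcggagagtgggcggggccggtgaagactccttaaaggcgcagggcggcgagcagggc
The windows differ at 3 of 250 positions (C44T, T47C and T249G, counted from 1 at the 5′ end, with the base of Hspa1a first). Both hold GAANNTTC at bases -104 to -97 before the start. GAANNTTC or TTCNNGAA, which are each their own reverse complement so that 1 search covers both strands, were present in 12.8% of 32851 promoters of the same length (GAANNTTC in 6.69%, TTCNNGAA in 7.17%). Hsph1 has TTCNNGAA at -54 to -47 before 1 annotated start and at -33 to -26 before another, and the windows of Dnajb1 hold neither arrangement. Promoters of Hspa8, Hsp90aa1 and Hsp90ab1 were not analysed here, so that 4 of the 7 genes were searched.

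The values are read counts divided by a size factor of each library, called normalized counts here. The libraries held 497637 to 734114 reads in PBS and 432322 to 1285816 in DOX. The 7 genes together received 109 to 177 reads per PBS library (0.0178% to 0.0280% of its reads) and 113 to 256 reads per DOX library (0.0199% to 0.0360%), so that each value rests on few reads. PBS replicate 4 stood apart: 14 granulocyte markers summed to 1185 normalized counts there against 24 to 91.1 in the other 8 libraries, 13 epithelial markers to 489 against 16.9 to 179, 7 red blood cell markers to 81.8 against 0 to 7.17, and 12 fibroblast markers to 1682 against 2414 to 3408. A ribosomal RNA gene took 35.3% of the values in DOX replicate 2 and 5.74% to 16.8% in the others. Col1a1, a fibroblast collagen, was at 1027 to 2333 normalized counts. Of the genes of the gate, Pdgfra was at 0.810 to 12.0, Ptprc (CD45) at 0 to 7.17, Epcam at 0 to 5.67 and Pecam1 (CD31) at 3.00 to 10.5, so that Pdgfra itself was near 0.

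A second gene lies over Hspa1a and held nearly all reads of the locus. Gm20481 (chr17:34969912-34972136, plus strand, annotated as protein coding) has 2 exon blocks, and all of its 564 exonic bases lie inside the single Hspa1a exon on the opposite strand. It was at 6545, 6065, 8457 and 7594 normalized counts in PBS replicates 1 to 4 and at 12983, 5270, 7729, 6929 and 5630 in DOX replicates 1 to 5. DOX replicate 1 was the highest and DOX replicate 2 the lowest, and the groups overlapped. Over the 9 libraries Gm20481 received 72917 reads and Hspa1a 314, so that 99.2% to 99.9% of the reads of the pair fell on Gm20481 in each library. It ranked 13 of 17428 symbols by mean normalized count, which is not scaled by length, and took 0.630% to 2.02% of the reads of a library. Its difference between the groups was smaller than their spread and did not pass the test (7165 ± 1072, SD, n = 4, against 7708 ± 3110, SD, n = 5; log2 fold change 0.04 ± 0.24 SE, limma adjusted p = 0.985).

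**Figure D1:**
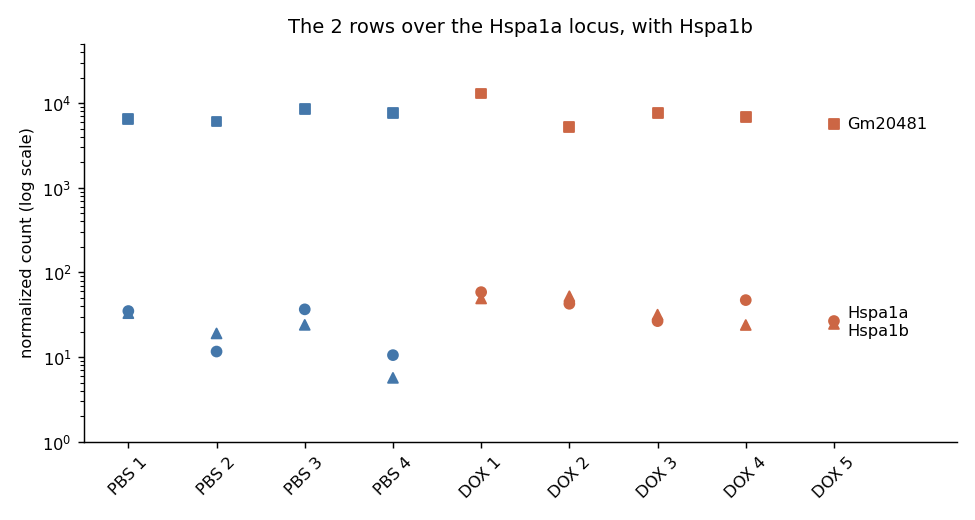
Normalized counts (log scale) of Gm20481 (squares), Hspa1a (circles) and Hspa1b (triangles) in each library, PBS in blue and DOX in orange. Gm20481 lies at 5270 to 12983 in every library and Hspa1a at 10.5 to 58.5.

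MARS-seq keeps the strand of a transcript, but the strand setting of the count is not given in the sources used here. Among the 20 symbols with the highest means, 19 have exons over those of another gene on the opposite strand (95%), as have 93 of the 100 highest (93.0%), against 35.0% of the 17138 symbols above 0 that the annotation holds. The exons of Gm20481 begin 722 bases from the annotated 3′ end of Hspa1a and hold no base within 500 of it, so that a tag at that end would not fall on them. Whether reads of Hspa1a transcripts that lie further from the end were counted for Gm20481 was not tested. Without the strand setting the strand of the reads on either gene is not known, and the values of all 7 genes may leave out most reads of their own transcripts. No other annotated gene has exons over Hspa1b, Hspa8, Dnajb1, Hsph1, Hsp90aa1 or Hsp90ab1 on the opposite strand. The nearest such neighbour is Slc35b2, a gene of the nucleotide sugar transporter family. It ends 104 bases from the 3′ end of Hsp90ab1 and did not pass the filter on low values. Values below are therefore those of the table rows that carry these symbols.

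None of the 5 chaperone genes tested passed the test between DOX and PBS. Genes were tested where at least 4 libraries reached 10 normalized counts, which 2604 genes did, among them Hspa1a, Hspa1b, Hspa8, Hsp90ab1 and Dnajb1 but neither Hsp90aa1 nor Hsph1. At an adjusted p of 0.05 limma on log2(value + 1) called 0 of the 5 and 0 of all 2604 genes (0.0%). At an unadjusted p under 0.05 limma counted 0 of the 5 and 162 of the 2604 (6.22%). On the recovered reads edgeR and limma-voom called 0 genes, and DESeq2 called 1 (0.0384%), which was none of the 5. Fitted to all 17428 symbols, limma called 3 (0.0172%), none of them among the 7. For all 7 genes the libraries of the groups overlapped; over the genes tested, 2.65% had groups that did not overlap. In bulk RNA, fewer cells expressing a gene and less RNA per cell cannot be told apart.

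**Figure D2:**
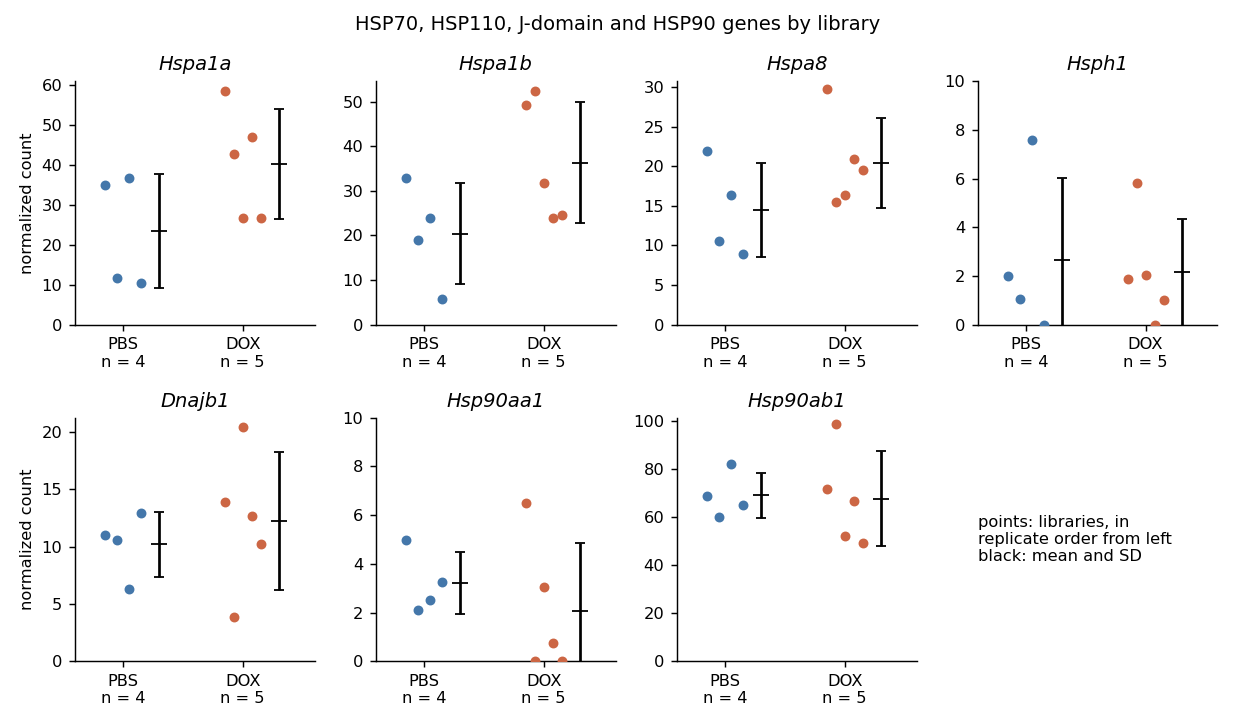
Normalized counts of the 7 chaperone genes in each library (points, replicates in order from the left), with the mean and SD of each group in black; the vertical scale starts at 0 and differs between panels. Hspa1a, Hspa1b and Hspa8 have a higher mean in DOX, with overlapping libraries, and Hsp90aa1 and Hsph1 stay under 10 normalized counts.

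The inducible HSP70 genes had the highest DOX over PBS differences among the 5 genes tested, within the spread between libraries. Hspa1a was at 35.0, 11.6, 36.6 and 10.5 normalized counts in PBS replicates 1 to 4 and at 58.5, 42.6, 26.6, 47.1 and 26.6 in DOX replicates 1 to 5. PBS replicates 2 and 4 were low, PBS replicates 1 and 3 lay inside the range of the DOX libraries, and DOX replicate 1 was the highest. The means were 23.4 ± 14.3 (SD, n = 4) and 40.3 ± 13.7 (SD, n = 5), with a log2 fold change of 0.90 ± 0.49 (SE, 95% interval -0.13 to 1.94, limma adjusted p = 0.775). Hspa1b was at 33.0, 19.0, 24 and 5.67 in PBS and at 49.2, 52.3, 31.7, 23.9 and 24.6 in DOX, in the same order of replicates. DOX replicates 1 and 2 lay above every PBS library, and PBS replicate 4 lay below every other library. Its means were 20.4 ± 11.4 and 36.3 ± 13.5 (log2 fold change 0.95 ± 0.52 SE, 95% interval -0.15 to 2.05, limma adjusted p = 0.775).

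Summed over both copies, which removes any split of reads between them, the values were 67.9, 30.6, 60.6 and 16.2 in PBS and 108, 94.8, 58.2, 71.0 and 51.2 in DOX. The groups still overlapped, since PBS replicates 1 and 3 exceeded DOX replicates 3 and 5. The sum was at 43.8 ± 24.5 in PBS and 76.6 ± 24 in DOX, with a log2 fold change of 0.94 ± 0.43 (SE, limma adjusted p = 0.758). The 95% interval of this single difference ran from 0.02 to 1.85 and is not adjusted over genes. PBS replicate 4, the library with the highest granulocyte, epithelial and red cell marker sums, was the lowest library for Hspa1a, for Hspa1b and for Hspa8. Without it the log2 fold change was 0.61 for Hspa1a, 0.46 for Hspa1b and 0.54 for the sum, with adjusted p of 0.789, 0.852 and 0.772 from limma. The part of other cells in these values was not tested.

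Hspa8, the constitutive HSP70 gene of the cytosol (ENSMUSG00000015656.17, chr9:40800984-40810087, plus strand), was also higher in DOX by its mean, within the spread. It was at 22.0, 10.6, 16.4 and 8.91 normalized counts in PBS replicates 1 to 4 and at 29.7, 15.5, 16.3, 20.9 and 19.5 in DOX replicates 1 to 5. All DOX libraries lay above the PBS median, as they did for Hspa1a and Hspa1b, but PBS replicate 1 exceeded 4 of the 5 DOX libraries. The share of all genes tested with DOX libraries placed in this way was not computed. The means were 14.5 ± 5.95 and 20.4 ± 5.66 (log2 fold change 0.51 ± 0.50 SE, limma adjusted p = 0.890). Another 8 genes match the end of the Hspa8 transcript at 95% identity or more; 3 of them were above 0 and none exceeded 9.73 normalized counts. A shift of reads between Hspa8 and these copies was not tested.

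The balance of inducible to constitutive HSP70 reads overlapped between the groups. Hspa1a and Hspa1b held 64.5% to 78.7% of the reads of the 3 HSP70 genes in PBS libraries (median 75.0%) and 72.5% to 86.0% in DOX libraries (median 78.1%). The extremes were PBS replicate 4, with 20 of 31 such reads (64.5%, Wilson 95% interval 46.9% to 78.9%), and DOX replicate 2, with 49 of 57 (86.0%, 74.7% to 92.7%). These intervals overlap and cover counting error only. Hspa1a gave 37.9% to 66.3% of the reads of the inducible pair. These are shares of the reads counted on each symbol, which are not scaled by transcript length. The strand of these reads is not known, so that the shares may not give the balance of the transcripts. The end of the Hspa8 transcript has 8 matching genes, whereas no other transcript matched those of Hspa1a and Hspa1b. The shares may therefore leave out Hspa8 reads, which was not tested.

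The HSP70 partners were thinly covered. Dnajb1 (ENSMUSG00000005483.10, chr8:83608193-83612653, plus strand) was at 11.0, 10.6, 6.31 and 13.0 normalized counts in PBS and at 13.9, 3.87, 20.4, 12.7 and 10.2 in DOX, with the lowest and the highest library both in DOX. Its means were 10.2 ± 2.80 and 12.2 ± 6.0 (log2 fold change 0.13 ± 0.65 SE, 95% interval -1.25 to 1.5, limma adjusted p = 0.985). Hsph1 (ENSMUSG00000029657.15, chr5:149614287-149636376, minus strand) received 18 reads in all and was at 2.00, 1.06, 7.57 and 0 in PBS and at 1.86, 5.81, 2.04, 0 and 1.02 in DOX. One library of each group held no Hsph1 read, and at these depths 3 reads correspond to 1.54 to 5.81 normalized counts, so that differences of that size were not detectable.

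Hsp90ab1, the constitutive HSP90 gene (ENSMUSG00000023944.14, chr17:45567775-45573271, minus strand), received the most reads of the 7 (635) and had nearly equal means in both groups. It was at 68.9, 60.2, 82.0 and 64.8 normalized counts in PBS and at 71.5, 98.7, 52.1, 66.5 and 49.2 in DOX. The DOX libraries extended both above and below all PBS libraries. The means were 69.0 ± 9.41 and 67.6 ± 19.8 (log2 fold change -0.06 ± 0.32 SE, 95% interval -0.73 to 0.60, limma adjusted p = 0.985). The inducible Hsp90aa1 (ENSMUSG00000021270.13, chr12:110690605-110702728, minus strand) received 24 reads in all. It was at 4.99, 2.11, 2.52 and 3.24 in PBS and at 6.50, 0, 3.06, 0.747 and 0 in DOX, the highest library and both libraries without a read being in DOX. The coding sequences of Hsp90aa1 and Hsp90ab1 match at 75.7% of aligned positions.

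**Figure D3:**
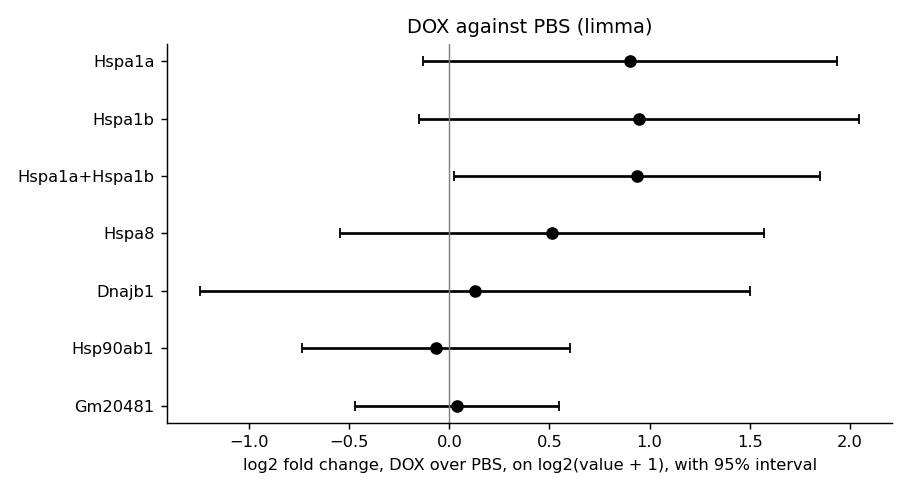
Log2 fold change of DOX over PBS on log2(value + 1) from limma, with its 95% interval (not adjusted over genes), for the 5 tested chaperone genes, the sum of Hspa1a and Hspa1b, and Gm20481. The intervals of all 5 genes and of Gm20481 include 0, and that of the sum runs from 0.02 to 1.85.

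Libraries of the PBS group differed less in Hsp90ab1 than in the inducible HSP70 genes. In PBS the coefficient of variation was 61.0% for Hspa1a, 55.8% for Hspa1b, 41.2% for Hspa8, 27.4% for Dnajb1 and 13.6% for Hsp90ab1. Counting reads alone would give 21.0%, 22.5%, 26.7%, 31.8% and 12.2%, so that the spread of Dnajb1 and Hsp90ab1 in PBS was close to counting error. Of the 200 tested genes nearest in mean, 59.0% had a lower coefficient than Hspa1a, 53.0% than Hspa1b, 24% than Hspa8, 6% than Dnajb1 and 5.50% than Hsp90ab1. In DOX the coefficients were 34.2%, 37.3%, 27.8%, 49.1% and 29.3% in the same order, and 8.50% to 34.0% of like genes had a lower one. The spread of Hspa1a and Hspa1b was thus near the middle of that of genes of like mean in PBS and in the lower part in DOX (26% and 34.0% of like genes lower). These are descriptions with no test.

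Hspa1a, Hspa1b and Hspa8 tended to be high in the same libraries. Over the 9 libraries, on log2(value + 1), Hspa1a and Hspa1b had Pearson's r of 0.81 (exact permutation p = 0.0039, adjusted p = 0.0195 over 10 pairs) and Spearman's rho of 0.60 (exact permutation p = 0.0968, adjusted p = 0.323). Without PBS replicates 2 and 4, the libraries farthest from the median of Hspa1a, r was 0.49, so that the relation rests on those libraries. Within the groups r was 0.78 in PBS and 0.52 in DOX. Hspa1a and Hspa8 had r of 0.89 (exact permutation p = 0.0021, adjusted p = 0.0195) and rho of 0.73 (exact permutation p = 0.0311, adjusted p = 0.311), with r of 0.59 without the same libraries. For Hspa1b and Hspa8, r was 0.75 (exact permutation p = 0.0199, adjusted p = 0.0499) and rho 0.50 (exact permutation p = 0.178, adjusted p = 0.425), and for Hsp90ab1 and Dnajb1, r was -0.77 (exact permutation p = 0.0170, adjusted p = 0.0499) and rho -0.38 (exact permutation p = 0.312, adjusted p = 0.521). Left without the 2 libraries farthest from the median of the first gene, these had r of 0.82 and -0.82. Of all 10 pairs, 0 passed when PBS replicate 2 alone or PBS replicate 4 alone was left out. No rho passed over the 10 pairs, and the other 6 pairs did not pass by r. Within DOX, Hspa1b and Hspa8 had r of 0.12. All points of a pair share a library, its depth and its scaling.

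**Figure D4:**
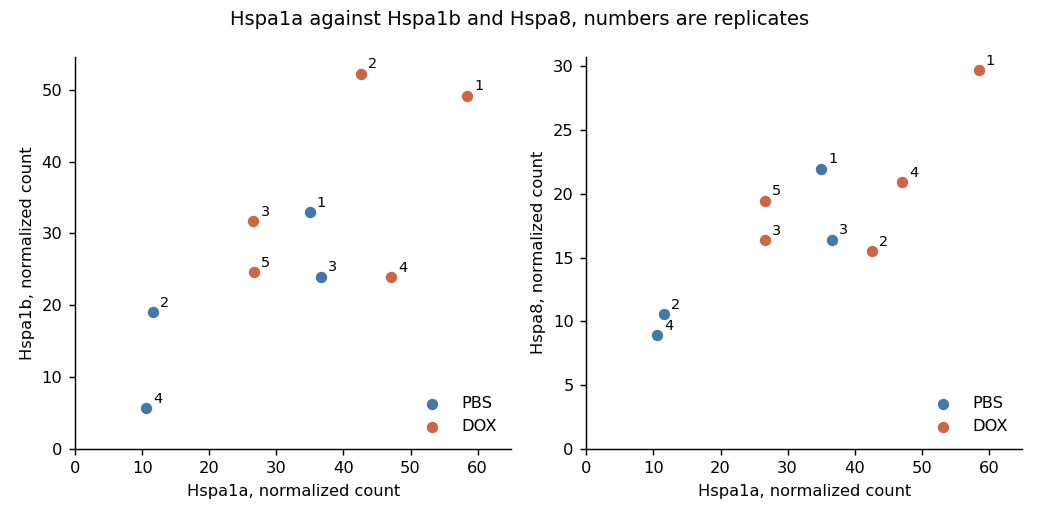
Normalized counts of Hspa1b (left) and Hspa8 (right) against Hspa1a, 1 point per library, PBS in blue and DOX in orange, numbers giving the replicate. PBS replicates 2 and 4 lie at the lower left of both panels and DOX replicate 1 at the right end of both.

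The genes whose profile was most like that of the 5 tested chaperone genes were Tuba1a, an alpha-tubulin gene (r = 0.91 to the mean of their standardized log2 values over 9 libraries), Podn, a matrix proteoglycan gene (r = 0.90), 6030443J06Rik (0.88), Gm15851 (0.88) and Olfr373 (0.87), out of 2599 genes. Tuba1a was at 8.76 ± 3.99 in PBS and 17.0 ± 6.26 in DOX. Gm20481 ranked 315 in that order with r of 0.44. Of the 18 tested immediate early genes, whose transcripts can rise when tissue is dissociated, 12 had r above 0 and 6 below 0, from -0.46 for Btg2 to 0.70 for Jun, with a median of 0.41. These correlations are descriptions that share libraries and scaling, and the genes named first were picked as the highest of 2599. The 5 chaperone profiles were not alike, with r of -0.77 for Hsp90ab1 and Dnajb1 and 0.89 for Hspa1a and Hspa8.

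The rest of the chaperone network gave no called gene either. Of 86 other listed genes, 85 were above 0 and 24 were tested, of which 9 were higher and 15 lower in DOX by their fitted means, with a median log2 fold change of -0.07 against -0.01 over all genes tested. Limma called 0 of these 24. Of the 15 genes of the HSP70 family 6 were tested, 3 of them Hspa1a, Hspa1b and Hspa8, and 5 of the 6 had a higher fitted mean in DOX (median 0.43), where 49.4% of all genes tested had one. With 1 library left out the median ran from 0.31 to 0.73, over 5 or 6 tested genes. The exception was Hspa5, the HSP70 of the endoplasmic reticulum, with means of 20.4 ± 12.1 and 8.69 ± 4.79 in PBS and DOX (log2 fold change -1.10 ± 0.65 SE, limma adjusted p = 0.784). Hspa12b had a log2 fold change of 0.35, and Hyou1, the large HSP70 relative of the endoplasmic reticulum, one of 0.00. Hsp90b1, the HSP90 of that compartment, had means of 6.92 and 9.70 (log2 fold change 0.57) and was the only other tested gene of the HSP90 and mitochondrial list.

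Among 21 J-domain genes 5 were tested, Dnajb1 among them, and fitted means were higher in DOX for 3 and lower for 2 (median 0.09). Dnajb9, an endoplasmic reticulum partner of HSPA5, was at 18.6 to 35.0 in PBS and at 6.15 to 15.8 in DOX, all DOX libraries lying below all PBS libraries, which 1.38% of all genes tested did. It did not pass (log2 fold change -1.28 ± 0.52 SE, limma adjusted p = 0.761). Dnaja1, the cytosolic partner of HSPA8, was at 79.2 ± 23.4 and 84.3 ± 22.1, and Dnaja3, of mitochondria, at 15.8 and 30.5. Of 12 nucleotide exchange factors, 2 were tested, Hyou1 and Bag6, the latter with a log2 fold change of -0.42.

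Of 20 HSP90 co-chaperones 8 were tested, and fitted means were higher in DOX for 2 and lower for 6 (median -0.04). Stub1, a ubiquitin ligase that binds HSP70 and HSP90, was at 202 ± 28.2 and 175 ± 55.4 (log2 fold change -0.27), and Fkbp8 at 8.06 and 14.5 (0.67). Cdc37l1, a relative of the kinase co-chaperone Cdc37, was at 17.0 and 19.9. The exons of Stub1 lie in part over those of Jmjd8 on the opposite strand, which was chosen after its values were seen and was at 1709 to 3626 normalized counts. Of 92 chaperone network genes above 0, the 7 included, 27 had such a partner above 0, and in 16 of the 27 a partner had the higher mean normalized count, not scaled by length. Among the 16 are Hspa1a, Stub1, Hsp90b1 and the chaperonin gene Tcp1, given below.

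Of 5 genes listed as heat shock factors, among them Hsbp1, which encodes a factor-binding protein, only Hsf2 was tested. Hsf2 was at 52.6 ± 17.4 and 56.4 ± 23.0 normalized counts. Of 27 HSF1 target genes, a list that holds all of the 7, 10 were tested, among them the 5 tested chaperone genes. Fitted means were higher in DOX for 6 and lower for 4 (median 0.11). Hspa1a, Hspa1b, Hspa8 and Dnajb1 were among the higher genes and Hsp90ab1 among the lower. Serpinh1, the collagen chaperone, was at 69.2 ± 19.7 and 41.1 ± 19.3 (log2 fold change -0.84 ± 0.42 SE, limma adjusted p = 0.761), opposite in sign to Hspa1a and Hspa1b. Ubb, a polyubiquitin gene, was at 20.0 and 17.2. Both tested genes of the TRiC chaperonin, Cct8 (107 and 95.1) and Tcp1 (13.3 and 11.6), had a lower fitted mean in DOX.

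Immediate early genes were read as a sign of stress during dissociation. Of 25 listed, 18 were tested, and 13 were higher and 5 lower in DOX by fitted mean (median 0.17), of which limma called 0. Without PBS replicate 4 the median was -0.022, so that its direction turned. Their summed level ran from 706 to 1048 normalized counts in PBS and from 654 to 1084 in DOX, so that the groups overlapped. Those of lowest p were Junb at 361 ± 22.5 and 256 ± 89.9 (log2 fold change -0.56), Egr1 at 68.6 ± 38.0 and 106 ± 32.8 (0.81) and Jun at 19.7 ± 10.1 and 37.0 ± 19.0 (0.87), with adjusted p of 0.761, 0.775 and 0.796 from limma. Jun and Egr1 thus had fold changes of the size of those of Hspa1a and Hspa1b, and the part of dissociation in these values was not tested.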

How the data were processed

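Fibroblast RNA of 9 libraries (4 PBS, 5 DOX) was read by MARS-seq, which sequences a tag near the 3′ end of polyadenylated transcripts. The authors used STAR for mapping to mm10 and HTSeq-count with a RefSeq annotation for counting. Not given in the sources used here are versions, the strand setting and any collapsing of molecular tags. What the authors deposited is a normalized signal of every gene and library, on 55421 lines with 55302 symbols; 119 repeated lines were summed. Every value was a whole multiple of 1 step per library (100%, tolerance 1e-06), and the steps matched median-of-ratios size factors, so that whole read counts were recovered. Intervals on reads cover counting error only.

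Genes that reached 10 in 4 or more libraries were tested on log2(value + 1) with limma 3.58.1 (trend, two-sided, Benjamini-Hochberg adjusted over all 2604 genes, threshold 0.05; R 4.3.3), which understates changes of low genes. Alternatives were edgeR 4.0.16, DESeq2 1.42.0 and limma-voom on the recovered reads, other scalings, pseudocounts and filters, and libraries left out. Pairs of genes were compared over all pairings of the 9 libraries (SciPy 1.17.1). Chi-square tests of reads between libraries of a group gave 8.51 to 41.4 per degree of freedom, so that libraries differed by more than counting error. This cannot tell separate mice from separate preparations of the same RNA. Scripts were tested on simulated data. Coordinates came from GENCODE M21. The 7 genes and all lists were chosen with earlier results of these data known. Named are the 7 genes, every tested gene of the HSP70 and HSP90 family lists, up to 3 tested genes of lowest p in each other list, genes over or next to the 7 on the opposite strand, and the 5 tested genes most like them in profile. One gene that this rule names is not reported here.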

Additional observations from a re-analysis of the deposited data

How the results depend on the processing

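None of the chaperone genes tested was called by any of the 21 alternatives, of which the filter at 20 tested 3 of the 7 (neither Hspa8 nor Dnajb1) and the fit with no filter all 7. Over the alternatives that tested a gene the log2 fold change ran from 0.58 to 1.18 for Hspa1a, from 0.31 to 1.24 for Hspa1b, from 0.45 to 1.21 for their sum and from 0.32 to 0.73 for Hspa8, all above 0, with the lowest values for the first 3 of these when PBS replicate 4 and DOX replicate 2 were left out together. Leaving out 1 library at a time, the sum ran from 0.54 to 1.21, with adjusted p from 0.703 to 0.851. Over all genes DESeq2 called 1 higher gene, and limma with no filter on low values called 2 higher and 1 lower of 17428. The log2 fold change of Hsp90ab1 ran from -0.21 to 0.037 with 1 library left out, that of Dnajb1 from -0.084 to 0.45 and that of Gm20481 from -0.17 to 0.15, so that their signs are not settled. The median of the HSP70 family list, which includes Hspa1a, Hspa1b and Hspa8 themselves, then ran from 0.31 to 0.73. Those of the other 8 lists changed sign, that of the immediate early genes running from -0.022 to 0.54.

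Whether the replicate numbers pair the libraries is not settled. Deviations from the group means correlated at 0.0207 to 0.0665 for same-numbered libraries and at -0.0803 to 0.0402 for the others. Of 4 PBS libraries, 3 were closest to the DOX library of their own number. With a replicate block, which leaves out DOX replicate 5, limma called 0 of 2450 genes; the sum had a log2 fold change of 1.07 and Hsp90ab1 one of 0.037.

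Of the 10 pairs, 4 passed by r; 2 passed with a pseudocount of 5, 0 without PBS replicate 4 and DOX replicate 2, and 0 to 3 with 1 library left out, 0 of them without PBS replicate 2 or without PBS replicate 4. For Hspa1a and Hspa1b, r was 0.67 without PBS replicate 4 and 0.88 without PBS replicate 2. The count of genes and groups whose spread exceeded that of the median like gene was 2; it was 1 when libraries were scaled by totals without ribosomal and mitochondrial RNA, 1 without PBS replicate 4 and DOX replicate 2, and 1 to 2 with 1 library left out. These alternatives for pairs and spread were chosen after seeing the data. At 116 reads for Dnajb1, 24 for Hsp90aa1 and 18 for Hsph1, the few reads counted limit what could be detected. The strand setting of the count is not known. Whether the counts left out reads of these transcripts was not tested.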
